A study of Mus musculus with 10 samples.

Results

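The sarcomere is the contractile unit of striated muscle, and the 45 genes described here encode its structural proteins: actins, troponins, tropomyosins, myosin light chains and myosin-binding proteins, M-band, titin and Z-disc proteins, with 3 chaperone or assembly factors and 2 abundant soluble muscle proteins. They were listed by name, with earlier results of these data known, and taken from a count table of 32285 mouse genes. Of the names, 45 of 45 matched exactly 1 gene. RNA was taken from whole Achilles tendon of mice of 3 genotypes and sequenced as 10 libraries by RamDA-seq, which makes libraries from little total RNA. Every mouse, controls included, was given 20 mg/kg of tamoxifen when 6 weeks old, and the tendon was collected 4 weeks later. Mkx-CreER/flox mice (n = 3 libraries) carried a tamoxifen-activated Cre recombinase on an Mkx-CreER allele together with a floxed Mkx allele, so that deletion can take place only in cells in which that allele is active. The product of Mkx is Mohawk, a tendon transcription factor of the homeobox class. One control genotype, Mkx-CreER/+ (n = 3), had the CreER allele without a floxed one, and the other, Mkx flox/+ (n = 4), had a floxed allele without Cre. The series text writes the latter as Mkx-flox, so its number of floxed copies is not settled here. Library numbers below are those of the count table (1, 4 and 5 for Mkx-CreER/flox, 1, 2 and 4 for Mkx-CreER/+, 1 to 4 for Mkx flox/+).

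In a sarcomere, thin filaments of actin, tropomyosin and the troponin complex are anchored in the Z-disc and slide along thick filaments of myosin, which the M-band holds in register. Titin spans from Z-disc to M-band, nebulin runs along the thin filament, and desmin ties neighbouring Z-discs together. Slow and fast muscle fibres use different genes for many of these parts, so that their isoforms serve as markers of fibre type. Tendon cells do not build sarcomeres. The Achilles tendon joins the calf muscles, where muscle fibres end on the tendon.

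Promoter sequences are shown for 4 members whose values are described below, to let the start-site regions of slow, fast and shared sarcomere genes be compared. RefSeq windows (build GRCm38.p6) were found for 33 of 45 members, and the 250 bases before the annotated start are printed 5′ to 3′ on the gene's own strand. Acta1, skeletal muscle actin, lies at chr8:123894776-123895025 (minus strand), Myom1, an M-band protein, at chr17:71019307-71019556 (plus strand), Myoz2, a Z-disc protein of slow fibres, at chr3:123034988-123035237 (minus strand) and Mylpf, the regulatory light chain of fast fibres, at chr7:127211358-127211607 (plus strand). Capitals mark every match to the CArG box (the site of serum response factor), to the MEF2 site or to CAGCTG (an E-box form bound by myogenic factors).
Acta1: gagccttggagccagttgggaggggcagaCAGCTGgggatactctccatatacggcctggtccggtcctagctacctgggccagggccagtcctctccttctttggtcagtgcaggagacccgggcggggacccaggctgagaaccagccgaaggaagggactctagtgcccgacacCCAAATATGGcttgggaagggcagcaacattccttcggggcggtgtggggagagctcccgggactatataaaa
Myom1: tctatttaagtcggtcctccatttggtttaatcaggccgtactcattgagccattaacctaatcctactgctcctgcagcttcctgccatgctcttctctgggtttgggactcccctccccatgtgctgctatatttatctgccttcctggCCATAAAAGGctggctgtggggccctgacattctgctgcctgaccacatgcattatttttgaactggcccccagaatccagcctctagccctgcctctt
Myoz2: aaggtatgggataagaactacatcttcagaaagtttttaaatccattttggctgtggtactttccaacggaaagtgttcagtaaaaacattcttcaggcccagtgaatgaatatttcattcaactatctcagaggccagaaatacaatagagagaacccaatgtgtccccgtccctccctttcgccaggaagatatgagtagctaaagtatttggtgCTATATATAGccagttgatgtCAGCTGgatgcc
Mylpf: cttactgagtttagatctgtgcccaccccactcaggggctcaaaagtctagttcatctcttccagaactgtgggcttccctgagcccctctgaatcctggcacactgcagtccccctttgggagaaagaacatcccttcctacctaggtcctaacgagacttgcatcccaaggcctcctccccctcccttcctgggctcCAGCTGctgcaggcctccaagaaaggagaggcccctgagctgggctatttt

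The Acta1 window held a CArG box 73 bases before the start, and the Myom1 window held one 99 bases before it, counted to the first printed base of the match. In Myoz2 a MEF2 site began 33 bases and a CAGCTG 12 bases before the start, while in Mylpf the one capitalised match was a CAGCTG 51 bases before it. Searching both strands, a CArG box was found in 5 of 33 member windows (15.2%; Acta1, Actc1, Ldb3, Myl3 and Myom1), against 1.40% of all 27025 windows of that length. MEF2 sites were in 3 of 33 (9.09%; Myom3, Myoz2 and Ttn), against 3.01%. The general E-box CANNTG was in 27 of 33 (81.8%, against 66.0%), and its CAGCTG form, counted within those, in 12 of 33 (36.4%, against 12.8%). The M-CAT motif CATTCC, read on both strands, was in 9 of 33 (27.3%, against 12.6%), and TATAAA, read on the gene's own strand, in 2 of 33 (6.06%, against 8.12%). These matches describe letters in 1 window per gene, were compared without a test, and do not show that a factor bound there. The first listed RefSeq window was used, and some lie far from the gene start of the GENCODE annotation. The Myl2 window ends at 122092723, before the gene's start at 122100951. That of Myom1 begins at 71019307, inside the gene, which starts at 71002633. Whether each window holds the start used in muscle was not tested.

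Libraries held between 8680934 and 22656417 counts, at which 3 counts correspond to 0.126 to 0.360 CPM (counts scaled by library size). Mkx itself was lower in the 3 Mkx-CreER/flox libraries (26.1, 32.4 and 30.5 CPM) than in Mkx-CreER/+ (91.4, 93.8 and 93.5) and Mkx flox/+ (187, 177, 121 and 153), with no overlap. Each Mkx-CreER/+ library also had less Mkx than each Mkx flox/+ one, although no gene was called between these controls by edgeR (below). Mkx-CreER/+ is therefore not taken here as a control with unchanged Mkx. The check of the tendon label was weak, since no other tissue was compared. The 11 tendon markers examined summed to at least 34904 CPM in every library, the marker Scx alone being at 13.5 to 53.7 CPM. All 11 passed the filter on low counts. After that filter 16017 genes were tested, and 45 of 45 sarcomere members were among them. Mybph alone had 3 counts or fewer in any library. Mkx-CreER/flox 1 stood apart in 9 mitochondrially encoded genes, 8.71% of counts against 1.88 to 5.23% in the other 9 libraries. Of these genes mt-Co2, mt-Co3 and mt-Atp6 did not exceed 1.45 CPM in any library, so the share is not that of all mitochondrial RNA. Mkx-CreER/flox 1 also stood apart in its share of sarcomere RNA (below). Values without this library are therefore also given for counts of calls and for called members that moved by over 1.5 times.

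RNA of the sarcomere was abundant in every tendon library, and more so in the knockout. The 45 genes took 13.3, 9.21 and 7.63% of all counts in Mkx-CreER/flox, 3.44, 7.26 and 6.63% in Mkx-CreER/+, and 1.78, 1.98, 4.18 and 5.14% in Mkx flox/+. Each Mkx-CreER/flox library thus lay above all 7 control libraries, the nearest pair being Mkx-CreER/flox 5 and Mkx-CreER/+ 2. Titin alone, the longest of the transcripts, supplied 45.7 to 62.7% of the members' counts, and without it the members took 3.12 to 5.87% in Mkx-CreER/flox, 1.87 to 3.85% in Mkx-CreER/+ and 0.861 to 2.55% in Mkx flox/+, where the first and second ranges overlapped. In bulk RNA, more cells of a type and more RNA per cell cannot be told apart.

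Compared per length (CPM per kilobase of exon), Acta1 was the most abundant member, with a mean level of 2962 over the 10 libraries. Mylpf (1078), the fast troponins Tnni2 (693) and Tnnt3 (599) and the titin-binding Z-disc protein Tcap (597) followed. The lowest were Mybph, a myosin-binding protein H gene (0.952), and Tnnc2, fast troponin C (6.78). Of the exon bases of Tnnc2, 74.0% overlap Ube2c on the other strand, and for Mybph 49.9% overlap Adora1. Reads were counted with a strand setting not given in the sources used here, so these levels are uncertain, as are those of Tmod1 (32.6% overlap with Tstd2), Mb (31.9% with Gm49540 and Apol6), Cryab (17.0% with Hspb2) and Ckm (15.5% with A930016O22Rik). Members differed widely in how steady they were: the ratio of the highest to the lowest library ran from 1.72 for Pdlim7, a LIM protein found in many cell types, to 91.9 for Mybph, with a median of 10. Among members with over 100 counts in every library, the slow-fibre genes Myoz2 (76.4), Myl2 (73.2), Tnnc1 (70.1) and Myl3 (69.4) varied most.

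The pattern by library was shared by most members. Library Mkx-CreER/flox 1 was the highest of the 10 for 29 of 45 members, Mkx-CreER/+ 2 for 14, and Mkx-CreER/flox 4 for 2 (Tcap and Flnc). The lowest library was a Mkx flox/+ one for 43 members: library 1 for 19, library 2 for 13 and library 3 for 11.

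**Figure D1:**
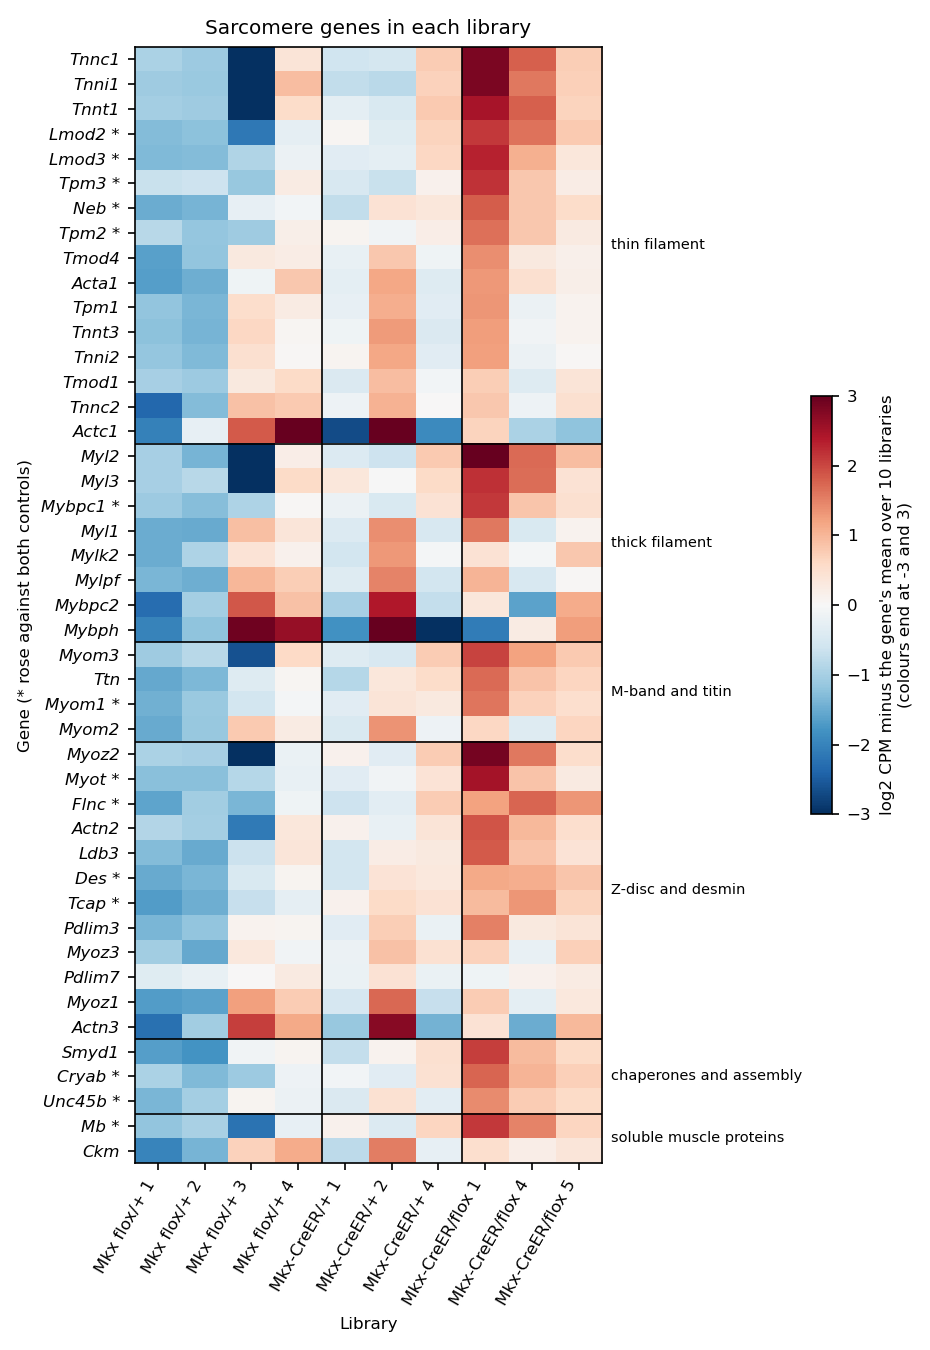
Level of each of the 45 members (vertical axis, grouped by role) in each of the 10 libraries (horizontal axis), as log2 CPM minus the gene's mean, with colours ending at -3 and 3 and an asterisk on the 14 members that rose against both controls. Library Mkx-CreER/flox 1 is the highest for 29 members, while Actc1, Mybph, Mybpc2 and Actn3 are highest in Mkx-CreER/+ 2.

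The first comparison asked what changed in the tendon where Mkx was deleted, with the knockout set against the average of the 2 control genotypes. Of the 45 members 14 rose and 0 fell, by 2.35 to 4.16 times, in edgeR's quasi-likelihood test with Benjamini-Hochberg adjustment over all genes (adjusted p between 0.0142 and 0.0384). That is 31.1% of the members, where 4.65% of all tested genes were called in either direction, 3.03% rising and 1.62% falling. At an unadjusted p under 0.05 were 26 members, a level that 20.7% of all genes reached. The log2 fold change was above 0 for 40 members and below 0 for 5, and its median was 1.29, against 0.02 over all genes. In 16 members the 3 Mkx-CreER/flox libraries all exceeded all 7 controls, which 3.81% of all genes did, and in 0 members did they all lie below, as 3.12% of all genes did.

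**Figure D2:**
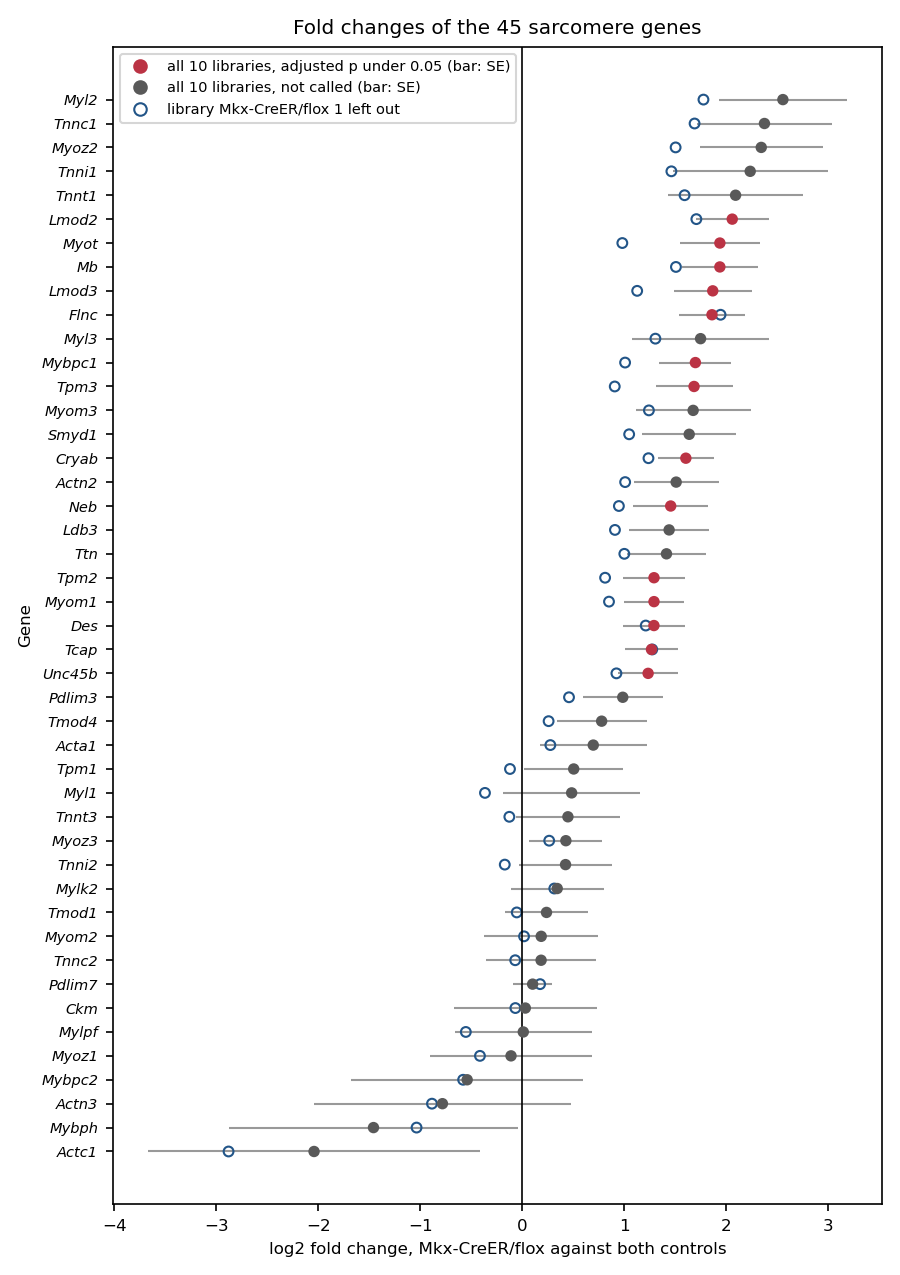
Fitted log2 fold change of each member (vertical axis) for Mkx-CreER/flox against both controls, with bars of 1 SE, in red where the adjusted p was under 0.05, and as open circles when library Mkx-CreER/flox 1 was left out. The slow-fibre genes Myl2 (2.55), Tnnc1 (2.37) and Myoz2 (2.34) have the largest values but wide bars, and the called members lie between 1.23 and 2.06.

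How much of this rests on single libraries differed between members. Cryab was called whichever of the 10 libraries was left out, and no other member was. Without Mkx-CreER/flox 1, the library with the largest share of sarcomere counts, 1 member was called, against 1.29% of all genes, and the members' median log2 fold change was 0.91. The 13 members that lost their call in this fit had log2 fold changes from 0.81 for Tpm2 to 1.94 for Flnc, with adjusted p between 0.0625 and 0.237 in edgeR. Leaving out Mkx-CreER/flox 4, Mkx-CreER/+ 1 or Mkx-CreER/+ 2 left 1, 2 and 1 members called, where 0.39, 0.459 and 0.406% of all genes were called, while the members' median was 1.32, 1.17 and 1.36. Leaving out Mkx flox/+ 1 or 2 left 5 and 8 members, against 1.55 and 2.21% of all genes (medians 1.17 and 1.20), and leaving out Mkx flox/+ 4 raised the number to 24, against 4.8% (median 1.43). In each of these fits that called fewer members, the share of all genes called was also lower. Each of the 14 called members kept a log2 fold change above 0 in all 19 alternative analyses.

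Among the 16 thin filament genes 5 rose: the tropomyosins Tpm2 and Tpm3, which lie along actin and gate myosin binding, nebulin (Neb), and the leiomodins Lmod2 and Lmod3, which nucleate and lengthen actin filaments. Lmod2 measured 271, 195 and 108 CPM in Mkx-CreER/flox libraries 1, 4 and 5, 65.2, 48.7 and 100.1 CPM in Mkx-CreER/+ libraries 1, 2 and 4, and 25.6, 26.9, 14.3 and 52.4 CPM in Mkx flox/+ libraries 1 to 4. Only Mkx-CreER/+ 4 came near the lowest knockout library, and all 3 knockout values were above all controls. The log2 fold change was 2.06 (SE 0.36, adjusted p = 0.0199) in edgeR's quasi-likelihood test, the largest of the called members. Lmod3 stood at 116, 48.9 and 29.3 CPM in Mkx-CreER/flox, 18.4, 18.9 and 35.5 in Mkx-CreER/+ and 9.25, 9.43, 12.4 and 20.6 in Mkx flox/+. Here the knockout libraries 4 and 1 were clear of the controls while library 5 fell below Mkx-CreER/+ 4, and the log2 fold change of 1.87 (SE 0.38, adjusted p = 0.0268) by edgeR became 1.13 without library 1 (adjusted p = 0.107).

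For the slow-fibre tropomyosin Tpm3 the levels were 1152, 451 and 299 CPM in Mkx-CreER/flox, 183, 162 and 279 in Mkx-CreER/+ and 161, 167, 117 and 305 in Mkx flox/+. Mkx-CreER/flox 5 lay just under Mkx flox/+ 4, so the groups overlapped, and the log2 fold change of 1.68 (SE 0.38, adjusted p = 0.0326) by edgeR became 0.91 without Mkx-CreER/flox 1 (adjusted p = 0.182). Tpm2 was found at 2682, 1499 and 1030.2 CPM in Mkx-CreER/flox, 916, 801 and 981 in Mkx-CreER/+ and 481, 384, 409.5 and 969 in Mkx flox/+. All 3 knockout values were above the controls, although library 5 exceeded Mkx-CreER/+ 4 by little, and the fitted change was 1.29 (SE 0.31, adjusted p = 0.0325) by edgeR. Neb, whose protein spans the thin filament, measured 15584, 7694 and 6455 CPM in Mkx-CreER/flox, 2643, 5907 and 5596 in Mkx-CreER/+ and 1558, 1686, 3720.1 and 4138 in Mkx flox/+. The knockout was again above every control, by a small margin between Mkx-CreER/flox 5 and Mkx-CreER/+ 2, with a log2 fold change of 1.45 (SE 0.37, adjusted p = 0.0384) by edgeR.

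The other 11 thin filament genes were not called. Acta1, whose protein forms the filament itself, had 9245, 5255 and 4222 CPM in Mkx-CreER/flox, 3063, 8344 and 2886 in Mkx-CreER/+ and 1187, 1353, 3423 and 6514 in Mkx flox/+. Mkx-CreER/+ 2 and Mkx flox/+ 4 reached or passed the 2 lower knockout libraries, and the log2 fold change was 0.70 (SE 0.52, adjusted p = 0.502) by edgeR. Actc1, cardiac actin, which is also made in immature skeletal fibres, had the lowest fitted value of all members, -2.04 (SE 1.63), which was -0.0645 without Mkx-CreER/+ 2 and -2.88 without Mkx-CreER/flox 1. Its levels were 19.6, 6.33 and 5.32 CPM in Mkx-CreER/flox, 1.92, 118 and 3.28 in Mkx-CreER/+ and 3.02, 10.4, 44.4 and 117 in Mkx flox/+, so that 3 control libraries were far above the rest and no group was uniform. The pointed-end caps Tmod1 and Tmod4 had log2 fold changes of 0.24 (SE 0.41) and 0.78 (SE 0.44), and Tpm1, the tropomyosin of fast fibres and heart, 0.50 (SE 0.49).

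Of the 8 thick filament genes 1 rose, Mybpc1, the slow myosin-binding protein C that links myosin with actin. Mybpc1 measured 2802, 1141 and 885 CPM in Mkx-CreER/flox libraries 1, 4 and 5, 570.2, 465 and 861 CPM in Mkx-CreER/+ libraries 1, 2 and 4, and 300.3, 262, 339 and 659 CPM in Mkx flox/+ libraries 1 to 4. Its lowest knockout library exceeded the highest control, Mkx-CreER/+ 4, by a narrow margin, and the log2 fold change of 1.70 (SE 0.35, adjusted p = 0.0249) by edgeR became 1.01 without Mkx-CreER/flox 1 (adjusted p = 0.134). The fast paralog Mybpc2 was at 218, 56.3 and 369 CPM in Mkx-CreER/flox, 85.7, 911 and 104 in Mkx-CreER/+ and 35.1, 84.8, 624 and 313 in Mkx flox/+ and had a log2 fold change of -0.54 (SE 1.14), which was 0.43 without Mkx-CreER/+ 2 and -1.20 without Mkx-CreER/flox 5. Its highest values were in Mkx-CreER/+ 2 and Mkx flox/+ 3, and the groups overlapped. Mylk2, the kinase of the skeletal myosin light chain, had a log2 fold change of 0.34 (SE 0.46) and was not called.

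In the M-band and titin group, 1 of 4 rose. Myom1, a myomesin that cross-links thick filaments, stood at 1019, 537 and 475 CPM in Mkx-CreER/flox, 262, 437 and 412 in Mkx-CreER/+ and 124, 153, 228 and 323 in Mkx flox/+. The knockout libraries were above all 7 controls, with a log2 fold change of 1.29 (SE 0.29, adjusted p = 0.0298) by edgeR. Titin measured 88459, 48964 and 42434 CPM in Mkx-CreER/flox, 14862, 34096 and 39591 in Mkx-CreER/+ and 9282, 10629.8, 20744 and 28066 in Mkx flox/+. It also exceeded every control, but Mkx-CreER/+ 4 was close to Mkx-CreER/flox 5, and with a log2 fold change of 1.41 (SE 0.39, adjusted p = 0.0512) it narrowly missed the threshold in edgeR while DESeq2 and limma voom, which called 9.03 and 18.7% of all genes, called it. Myom3, the myomesin of slow and intermediate fibres, had 1.67 (SE 0.56), and Myom2, that of fast fibres, 0.18 (SE 0.56), neither of them called.

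The Z-disc and desmin group had 4 called members of 12: Flnc, Tcap, Des and Myot. Flnc encodes filamin C, an actin cross-linker of the Z-disc. Flnc measured 541, 782 and 586 CPM in Mkx-CreER/flox libraries 1, 4 and 5, 152, 189 and 399 CPM in Mkx-CreER/+ libraries 1, 2 and 4, and 78.8, 113, 91.0 and 216 CPM in Mkx flox/+ libraries 1 to 4. Unlike most members it was highest in Mkx-CreER/flox 4, and every knockout library exceeded every control. The log2 fold change was 1.86 (SE 0.32, adjusted p = 0.0167) by edgeR, and it was 1.94 without Mkx-CreER/flox 1 (adjusted p = 0.0625). Tcap, which caps titin at the Z-disc, had 902, 1174 and 742 CPM in Mkx-CreER/flox, 512, 701 and 633 in Mkx-CreER/+ and 147, 169, 288 and 389 in Mkx flox/+. The 3 genotypes did not overlap in Tcap at all, each Mkx-CreER/+ library being above each Mkx flox/+ one and below each knockout one, and the change against both controls was 1.27 (SE 0.26, adjusted p = 0.0227) by edgeR.

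Desmin (Des), the intermediate filament of muscle, was at 817, 788 and 666 CPM in Mkx-CreER/flox, 256, 498 and 467 in Mkx-CreER/+ and 131, 143, 272 and 396 in Mkx flox/+. The knockout values were the most even of the called members, all above the controls, with a log2 fold change of 1.29 (SE 0.30, adjusted p = 0.0325) by edgeR. Myotilin (Myot), which binds actinin and filamin, was at 1895, 607 and 406 CPM in Mkx-CreER/flox, 266, 313 and 443 in Mkx-CreER/+ and 142, 140.2, 185 and 287 in Mkx flox/+. Its value in Mkx-CreER/flox 1 was over those of the other knockout libraries, Mkx-CreER/flox 5 was below Mkx-CreER/+ 4, and the log2 fold change of 1.94 (SE 0.39, adjusted p = 0.0268) by edgeR became 0.98 without library 1 (adjusted p = 0.0895). The anchoring proteins Actn2 (1.51 (SE 0.42), adjusted p = 0.0619) and Ldb3 (1.44 (SE 0.40), adjusted p = 0.0614) exceeded all controls in all 3 knockout libraries but were not called by edgeR. Pdlim3, a LIM protein that binds actinin, had 0.98 (SE 0.39), Myoz3, a fast-fibre calsarcin, 0.43 (SE 0.36), and Pdlim7 0.10 (SE 0.19).

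All 3 chaperone and assembly genes exceeded every control in every knockout library, and 2 were called. Cryab (ENSMUSG00000032060, chromosome 9, 50751325 to 50756636, plus strand, mm10) encodes alpha-B crystallin, a small heat-shock protein that binds desmin and titin. Cryab measured 1927, 1176 and 952 CPM in Mkx-CreER/flox libraries 1, 4 and 5, 543, 456 and 794 CPM in Mkx-CreER/+ libraries 1, 2 and 4, and 300.3, 229, 272 and 523 CPM in Mkx flox/+ libraries 1 to 4. The knockout libraries were apart from all controls, the closest being Mkx-CreER/flox 5 and Mkx-CreER/+ 4. With a log2 fold change of 1.60 (SE 0.27, adjusted p = 0.0142) by edgeR it had the smallest adjusted p of the members, and without Mkx-CreER/flox 1 it was 1.24 (adjusted p = 0.0442). Unc45b, a myosin-folding chaperone, had 103, 65.9 and 57.5 CPM in Mkx-CreER/flox, 28.7, 53.2 and 31.2 in Mkx-CreER/+ and 14.9, 19.0, 40.6 and 34.4 in Mkx flox/+ and a log2 fold change of 1.23 (SE 0.30, adjusted p = 0.0352) by edgeR. The margin between its lowest knockout library and Mkx-CreER/+ 2 was small. Smyd1, a methyltransferase needed for myosin assembly, had 1.64 (SE 0.46, adjusted p = 0.074) and was not called by edgeR.

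Of the soluble proteins, myoglobin (Mb), the oxygen store of slow and oxidative fibres, rose by 1.94 (SE 0.37, adjusted p = 0.0224) on the log2 scale in edgeR. Mb measured 1803, 1163 and 649 CPM in Mkx-CreER/flox libraries 1, 4 and 5, 455, 314 and 655 CPM in Mkx-CreER/+ libraries 1, 2 and 4, and 182, 212, 89.5 and 353 CPM in Mkx flox/+ libraries 1 to 4. Mkx-CreER/flox 5 and Mkx-CreER/+ 4 were nearly level, so the groups overlapped slightly. The muscle creatine kinase Ckm, most abundant in fast fibres, had a log2 fold change of 0.03 (SE 0.70) and its highest level in Mkx-CreER/+ 2, at 1251 CPM.

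**Figure D3:**
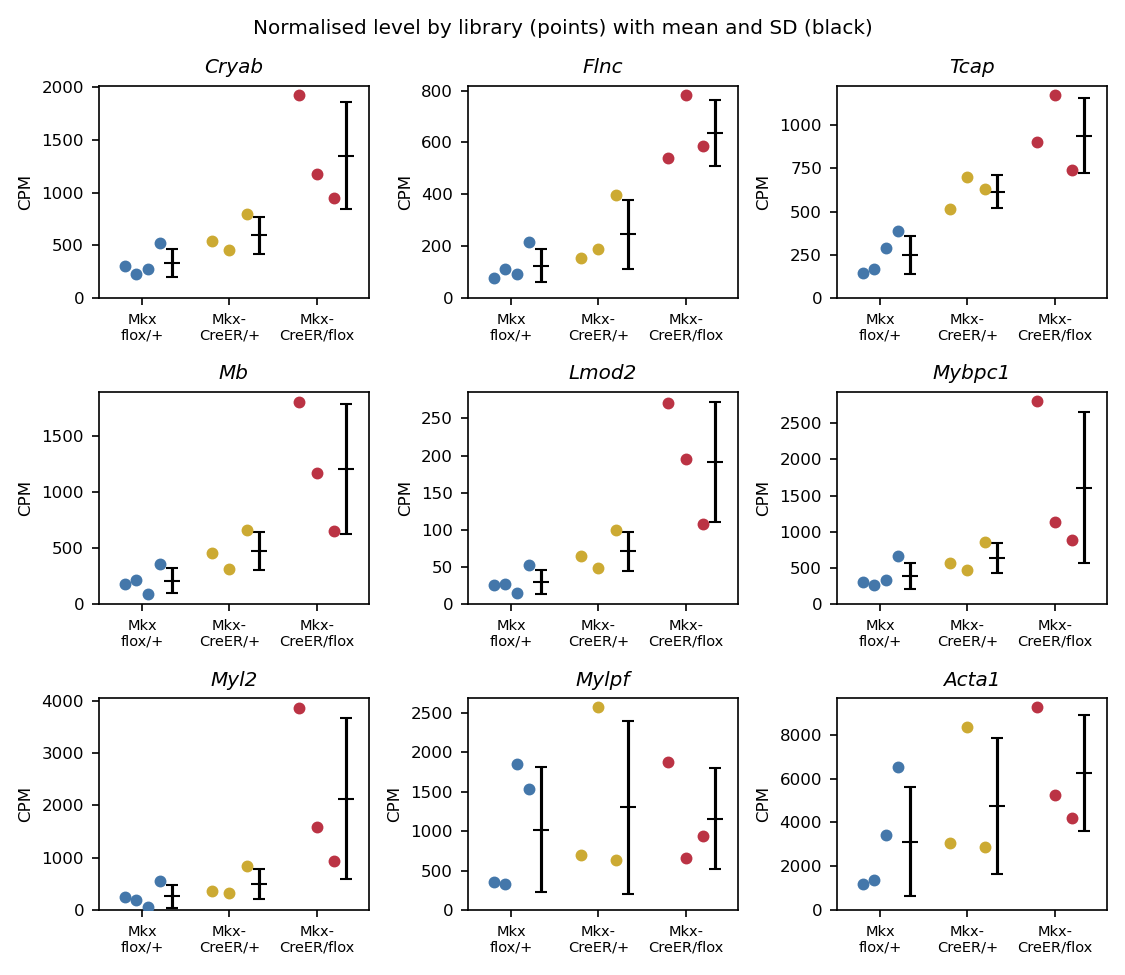
CPM (vertical axis, from 0) of 9 members in each library, grouped by genotype, with points for libraries and black bars for mean and SD. Cryab, Flnc, Tcap, Lmod2 and Mybpc1 in all 3 Mkx-CreER/flox libraries lie above all 7 controls, while Mylpf and Acta1 overlap between genotypes.

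Slow and fast versions of the same parts are described next. The 7 slow-fibre members (Tnnt1, Tnni1, Tnnc1, Myl2, Myl3, Tpm3 and Myoz2) all had log2 fold changes above 0, between 1.68 and 2.55 with a median of 2.23, and this sign was the same in every alternative analysis. Of these, 7 were at an unadjusted p under 0.05 in edgeR, a level that 20.7% of all genes reached. Tpm3 alone was called by edgeR, where 4.65% of all genes were called, and DESeq2 called 5, where it called 9.03%. Smooth muscle or fibroblasts also make Tpm3, so its call is not particular to slow fibres. In Mkx flox/+ 3 it was at 117 CPM, where Tnnc1 was at 21.7 and Myl2 at 52.7 CPM. Without Mkx-CreER/flox 1 the range of the 7 was 0.91 to 1.78 with a median of 1.502, and 0 were called, against 1.29% of all genes. The 8 fast-fibre members (Tnnt3, Tnni2, Tnnc2, Myl1, Mylpf, Actn3, Mybpc2 and Myoz1) had a median of 0.10, with 5 above and 3 below 0 (4 and 4 by upper-quartile scaling or without a filter, 2 and 6 by limma voom), and edgeR called 0. An unadjusted p under 0.05 in edgeR was reached by 0 of them, and DESeq2 and limma voom called 0. Without Mkx-CreER/flox 1 all 8 were below 0 (median -0.39) and without Mkx-CreER/+ 2 all 8 were above 0 (median 0.50), so that their direction depended on single libraries and on the method. Whether the slow and fast groups differed in response was not tested.

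The slow genes Tnnt1, Tnni1, Tnnc1, Myl2 and Myoz2 were each set beside a fast partner, while Myl3 and Tpm3 were not. Troponin T, which ties the troponin complex to tropomyosin, has the slow form Tnnt1, at 1209, 756 and 351 CPM in Mkx-CreER/flox, 178, 161 and 375 in Mkx-CreER/+ and 109, 104, 20.6 and 319 in Mkx flox/+. Its fast form Tnnt3 was at 1914, 743 and 854 CPM in Mkx-CreER/flox, 726, 1944 and 588 in Mkx-CreER/+ and 342, 302, 1229 and 839 in Mkx flox/+. Slow Tnnt1 was high in the knockout libraries 1 and 4, with Mkx-CreER/+ 4 above library 5, and fast Tnnt3 was highest in Mkx-CreER/+ 2 and Mkx-CreER/flox 1. The fitted log2 fold changes were 2.09 (SE 0.66, adjusted p = 0.111) and 0.45 (SE 0.51, adjusted p = 0.684) by edgeR.

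Troponin I is the inhibitory subunit. Its slow form Tnni1 measured 439, 185 and 102 CPM in Mkx-CreER/flox, 37.1, 35.5 and 99.8 in Mkx-CreER/+ and 29.8, 28.9, 7.84 and 119 in Mkx flox/+, and its fast form Tnni2 measured 2096, 789 and 913 CPM in Mkx-CreER/flox, 942, 1991 and 713 in Mkx-CreER/+ and 403, 358, 1259 and 912 in Mkx flox/+. In Tnni1 Mkx flox/+ 4 lay between the knockout libraries, whereas in Tnni2 Mkx-CreER/+ 2 nearly equalled Mkx-CreER/flox 1. Log2 fold changes were 2.23 (SE 0.76) and 0.42 (SE 0.46), neither called. Troponin C binds the calcium that starts contraction, and its slow form Tnnc1 measured 1518, 743 and 358 CPM in Mkx-CreER/flox, 144, 150.4 and 369 in Mkx-CreER/+ and 111, 101, 21.7 and 282 in Mkx flox/+, with a log2 fold change of 2.37 (SE 0.66, adjusted p = 0.0788) by edgeR. Mkx-CreER/+ 4 was just above Mkx-CreER/flox 5 in Tnnc1. The fast form Tnnc2, whose exons mostly overlap Ube2c, was at 7.78, 4.03 and 6.21 CPM in Mkx-CreER/flox, 3.99, 9.14 and 4.5 in Mkx-CreER/+ and 0.876, 1.82, 8.18 and 7.67 in Mkx flox/+ and had 0.18 (SE 0.54). No slow-to-fast ratio is read from this pair.

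Among the regulatory light chains, the slow form Myl2 measured 3858, 1585 and 927 CPM in Mkx-CreER/flox, 364, 316 and 833 in Mkx-CreER/+ and 241, 184, 52.7 and 559 in Mkx flox/+. All 3 knockout libraries exceeded all controls, but they also differed among themselves, and the log2 fold change of 2.55 (SE 0.63, adjusted p = 0.0513) missed the threshold in edgeR and was 1.78 without Mkx-CreER/flox 1. The fast form Mylpf measured 1881, 657 and 938 CPM in Mkx-CreER/flox, 702, 2570.1 and 629 in Mkx-CreER/+ and 354, 333, 1851 and 1535 in Mkx flox/+, with the highest value in Mkx-CreER/+ 2, the lowest in Mkx flox/+ 2, and a log2 fold change of 0.01 (SE 0.67). In the calsarcins, which bind calcineurin at the Z-disc, slow Myoz2 was at 821, 335 and 162 CPM in Mkx-CreER/flox, 124, 88.3 and 189.8 in Mkx-CreER/+ and 58.6, 56.8, 10.7 and 98.8 in Mkx flox/+ and fast Myoz1 at 194, 93.4 and 143 CPM in Mkx-CreER/flox, 81.7, 382 and 71.5 in Mkx-CreER/+ and 35.9, 37.8, 268 and 194 in Mkx flox/+. Myoz2 was lowest in Mkx flox/+ 3, which had the most Myoz1 after Mkx-CreER/+ 2, and the fitted changes were 2.34 (SE 0.60, adjusted p = 0.0619) and -0.11 (SE 0.80) by edgeR.

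Summed as CPM per kilobase, the slow members made up 50.1, 60.5 and 34.8% of slow plus fast in Mkx-CreER/flox, 28.8, 9.50 and 45.6% in Mkx-CreER/+, and 32.5, 32.3, 2.05 and 26.7% in Mkx flox/+. These sums include Tnnc1 (1458, 714 and 344 CPM per kilobase in Mkx-CreER/flox) and the uncertain Tnnc2 (9.72, 5.03 and 7.76). The slow and fast lists are also not matched gene for gene. The percentages therefore depend on the genes listed and do not measure a share of slow fibres. The 2 highest shares were knockout libraries, but Mkx-CreER/+ 4 exceeded Mkx-CreER/flox 5, so the genotypes overlapped. Mkx flox/+ 3 and Mkx-CreER/+ 2 had the lowest slow shares. Myosin heavy chains, which are not among the 45 genes, are given for the same libraries. Fast type 2B Myh4 was at 1916 CPM per kilobase in Mkx-CreER/+ 2 and 1567 in Mkx flox/+ 3, against 2.01 to 529 in the other 5 controls and 269, 11.7 and 549 in Mkx-CreER/flox, so the genotypes overlapped. Slow Myh7 was at 390, 334 and 190 in Mkx-CreER/flox, 44.6, 60.7 and 179 in Mkx-CreER/+ and 35.1, 43.2, 12.1 and 136 in Mkx flox/+. Each knockout library was above each control in Myh7, with Mkx-CreER/+ 4 close to Mkx-CreER/flox 5.

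**Figure D4:**
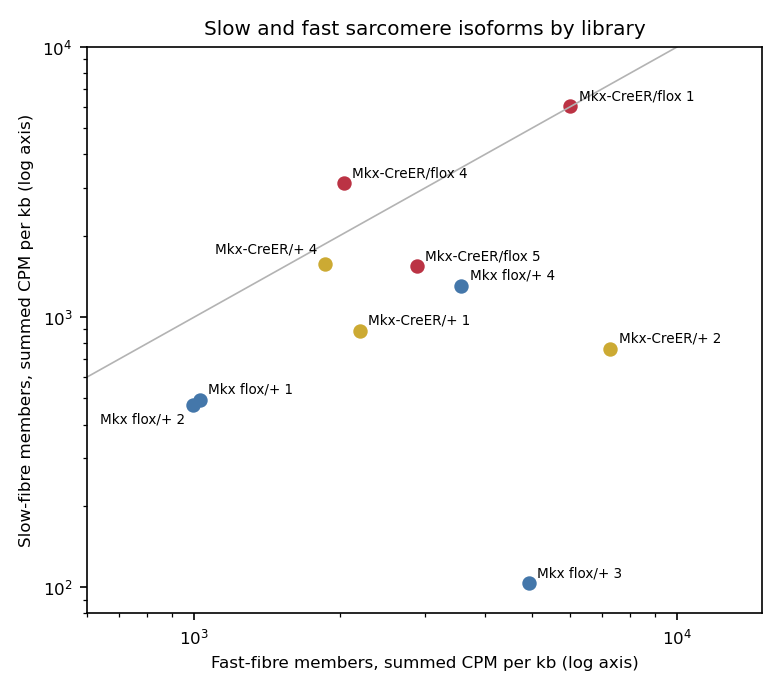
Summed CPM per kilobase of the 7 slow-fibre members (vertical log axis) against that of the 8 fast-fibre members (horizontal log axis), 1 point per library coloured by genotype, with a grey line where both are equal. Mkx-CreER/flox 4 lies above the line and Mkx-CreER/flox 1 on it (slow share 60.5 and 50.1%), and Mkx flox/+ 3 lies farthest below it (2.05%). Positions relative to the line depend on the genes listed, which include Tnnc1 and the uncertain Tnnc2 and are not matched gene for gene.

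Each control alone gave a different picture, and since both comparisons use the same 3 knockout libraries they are not independent. Against Mkx flox/+, 19 of 45 members rose (42.2%) and 0 fell, where 7.27% of all genes were called in either direction, 4.37% rising and 2.9% falling. The 14 called against both controls were among them, with Actn2, Ldb3, Ttn, Myl2 and Myoz2 in addition, and log2 fold changes ran from 1.47 for Unc45b to 3.03 for Myl2 with a median over the 45 of 1.68. The knockout libraries all exceeded all Mkx flox/+ libraries in 23 members, as in 10% of all genes, and in 0 members they all lay below, as in 9.5%. DESeq2 called 23 members against Mkx flox/+, and 11.6% of all genes, and limma voom 21, and 17.8%. Without Mkx-CreER/flox 1, 6 members remained called against Mkx flox/+, where 3.83% of all genes were called (Tcap, Myot, Flnc, Lmod2, Lmod3 and Cryab).

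Against Mkx-CreER/+, the control that shares the CreER allele, edgeR called 0 of 45 members, and 0.00624% of all genes were called, which was Mkx alone. At an unadjusted p under 0.05 were 17 members, against 10.7% of all genes. DESeq2 called 1 member (Flnc), where it called 0.699% of all genes, and limma voom 2 (Flnc and Cryab), where it called 4.46%, so that its share of the members was near that of all genes. The members' median log2 fold change was 0.90, with 36 above 0. The largest were 2.07 (SE 0.98, adjusted p = 0.507) for Tnni1 and 2.07 (SE 0.81, adjusted p = 0.41) for Myl2 by edgeR, and the lowest adjusted p was 0.329. In 18 members all knockout libraries were above all Mkx-CreER/+ libraries, as in 6.65% of all genes, and in 0 members they all lay below, as in 6.14%.

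Between the 2 controls, Mkx-CreER/+ against Mkx flox/+, edgeR called 0 members and 0% of all genes. Still, 43 of 45 members were higher in Mkx-CreER/+ by the fit, with a median log2 fold change of 0.68 against 0.0016 over all genes. At an unadjusted p under 0.05 were 7 members, and 4.98% of all genes. DESeq2 called Tcap, and 0.219% of all genes, and limma voom called 0 members and 0% of all genes. For Tcap the edgeR value was 1.31 (SE 0.30, adjusted p = 0.489), as large as its change in the knockout against both controls.

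Genes outside the 45 give the setting, beside 3.03% of all genes that rose and 1.62% that fell. Of 30 other skeletal muscle genes 7 rose and 0 fell, with a median log2 fold change of 0.88, and those named here, from the smallest p, are Nrap (1.69 (SE 0.28)), Xirp2 (1.93 (SE 0.32)) and Klhl41 (1.92 (SE 0.36)), which build or stabilise myofibrils. The summed level of the 30 genes was 21636 to 31523 CPM in Mkx-CreER/flox, 11954 to 31567 in Mkx-CreER/+ and 6276 to 22015 in Mkx flox/+. The 45 members held 5.03, 3.88 and 3.31 counts per count of these 30 genes in Mkx-CreER/flox, 2.72, 2.30 and 3.87 in Mkx-CreER/+ and 2.86, 2.91, 1.92 and 3.07 in Mkx flox/+, so that the ratio also ran higher in the knockout with overlap. With the mean log2 CPM of these genes as a covariate, 0 of 45 members and 0.0375% of all genes were called. In that fit 25 members were above 0, among them the 7 slow ones (median 1.45), while the 8 fast ones were all below 0 (median -1.32). The 30 genes include fast Myh4 and slow Myh7, so these signs depend on the genes listed. Their mean was 8.01 to 8.93 in Mkx-CreER/flox, 7.09 to 8.26 in Mkx-CreER/+ and 6.13 to 7.84 in Mkx flox/+. The covariate thus ran partly with genotype, and the fit does not compare members at equal muscle content. A list of 21 further sarcomere genes, 6 of them shared with the list of 30, had 11 that rose and 0 that fell, with a median of 1.69. Its smallest p were those of Synpo2 (1.59 (SE 0.26)), Nrap, Xirp2 and Ankrd1 (1.66 (SE 0.30)).

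Markers of other cells moved as well, where 3.03% of all genes rose and 1.62% fell. Heart markers were low: Myl7 was at 0 in every library, Nppa and Nppb did not exceed 0.227 CPM, 0 of the 4 that could be tested of 8 were called, and the 8 summed to 11.5 to 39.2 CPM. Of 13 myogenic and satellite cell genes 10 were tested and 3 rose, namely Mef2c (1.40 (SE 0.28)), Chrna1 (1.38 (SE 0.33)) and Pax7 (2.34 (SE 0.60)), and their sum was 743 to 1356 CPM in Mkx-CreER/flox, 409 to 690 in Mkx-CreER/+ and 343 to 521 in Mkx flox/+. Among 13 smooth muscle and pericyte genes 2 rose (Rgs5 and Abcc9), and the sums were 1387 to 1954, 909.6 to 1270.1 and 935 to 1255 CPM in the same order. Of the 9 members that smooth muscle or fibroblasts also make, 5 rose (Tpm2, Tpm3, Flnc, Des and Cryab). Endothelial genes rose in 2 of 8, Schwann cell genes in 1 of 8, mitochondrially encoded genes in 6 of 7 tested and adipocyte genes in 0 of 6. Tendon genes fell in 5 of 11, with sums of 34904 to 46849 CPM in Mkx-CreER/flox, 58727 to 73177 in Mkx-CreER/+ and 92232 to 150718 in Mkx flox/+, and macrophage genes fell in 9 of 9. The part of these other cells in the values of the 45 members was not tested.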

How the data were processed

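The authors deposited 1 table of raw counts per Ensembl gene. The submitters' processing notes name fastp, STAR and the genome mm10, with versions, counting tool, annotation and strand setting not given in the sources used here. Columns of Mkx flox/+ carry the number of their sample, while those of the other genotypes show only the genotype, their numbers not being the labels' replicate numbers. Symbols, exon lengths and overlaps came from GENCODE vM21 (32235 of 32285 identifiers paired with a symbol). The labels do not say that each library is a separate mouse, so p-values measure the spread between these libraries. Squared differences within replicate pairs were 23.6 to 119 times those from counting error alone (chi-square per degree of freedom).

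Genes kept by filterByExpr were scaled by TMM in edgeR 4.0.16 (R 4.3.3) and fitted with a robust quasi-likelihood model with a term per genotype over all 10 libraries. Benjamini-Hochberg adjusted p under 0.05 was called, and CPM are TMM-scaled. The method was tested on simulated data in which each gene varied independently of the others. Those data held no shift shared by many genes of 1 library, so the test does not cover calls of members that vary together. Alternatives were DESeq2 1.42.0, limma 3.58.1 voom weighted by sample quality, upper-quartile or RLE scaling, tests without a filter or with CPM of at least 1 in 3 libraries, fits of only the compared groups or of the 7 controls pooled, a muscle score covariate (30 genes, log2 CPM with prior count 2) and each library left out. Values in every library are given for members called against both controls, the 5 most abundant per length and slow or fast partners, and up to 4 genes of smallest p from each list of other muscle or sarcomere genes, of which 1 is not reported here. Titin, Actc1 and Mybpc2 were added after their values were seen. Members and lists were chosen with earlier results of these data known. The 3-count floor covers counting error only, while each SE comes from the fit and includes the spread between libraries.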

Additional observations from a re-analysis of the deposited data

Results flagged for a closer look

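In groups of 4 libraries, the gap between an extreme library and its nearest neighbour was compared with the whole range of the group, for each of the 45 members in Mkx flox/+. Tpm2, a tropomyosin, was the 1 member past Dixon's critical value for 4 samples. Its level in Mkx flox/+ 4 was 969 CPM, against 481, 384 and 409.5 CPM in libraries 1 to 3, a gap of 0.835 of the range. Chance alone passes this limit in about 1 of 20 groups. Against both controls Tpm2 was called with this library in the fit, and its log2 fold change ranged from 0.81 to 1.54 over the analyses that left out 1 library each.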

How the results depend on the processing

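Counts of called members depended on the setting. So did the share of all genes called, given in brackets. Against both controls the number was 14 (4.65%), and it was 20 with DESeq2 (9.03%), 16 with limma voom (18.7%), 14 with RLE (4.52%) or upper-quartile scaling (4.81%), 15 with the stricter filter (4.91%) and 10 with the controls as 1 group (3.59%). It was 6 without a filter (3.64%), 0 with the muscle covariate (0.0375%), and 1 to 24 with 1 library left out (0.39 to 6.77%). Against Mkx flox/+ it was 19 (7.27%), 12 without a filter (5.02%), 0 with the covariate (0.144%) and 6 to 25 with 1 library left out (2.86 to 9.62%). Against Mkx-CreER/+ it was 0 (0.00624%), 1 with DESeq2 (0.699%), 2 with limma voom (4.46%) and 0 to 1 with 1 library left out (0 to 0.711%). Between the controls it was 0 (0%), and 1 with DESeq2 (0.219%). The covariate with Mkx-CreER/flox 1 left out, chosen after seeing the data, gave 1 against both controls (Ckm, which fell; 0.315%) and 3 against Mkx flox/+ (Tcap rose, Mylpf and Ckm fell; 0.861%). The cause of these shifts was not tested. Without a filter 24406 genes were tested and 888 called against both controls, where the main fit tested 16017 and called 744.

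Of the 45 log2 fold changes against both controls, 26 kept their sign in all 19 alternatives. With limma voom values below 0 were -0.0120 for Tnnc2, -0.10 for Myl1, -0.28 for Mylpf, -0.0541 for Myom2 and -0.17 for Tmod1. Upper-quartile scaling gave -0.0681 for Mylpf and -0.0250 for Ckm, and no filter -0.00557 for Mylpf. The muscle covariate, followed by the covariate with Mkx-CreER/flox 1 left out, gave -0.53 and -0.52 for Acta1, -0.79 and -0.85 for Tnnt3, -0.73 and -0.82 for Tnni2, -1.07 and -1.02 for Tnnc2, -0.76 and -0.83 for Tpm1, and -1.16 and -1.25 for Myl1. It gave -1.47 and -1.47 for Mylpf, -0.52 and -0.44 for Mylk2, -0.89 and -0.83 for Myom2, -0.35 and -0.33 for Myoz3, -0.0872 and -0.16 for Pdlim3, -0.16 and -0.11 for Pdlim7, -0.74 and -0.74 for Tmod1, -0.38 and -0.44 for Tmod4, and -1.20 and -1.08 for Ckm. With 1 library left out the ranges that crossed 0 were -0.55 to 0.49 for Mylpf, -0.18 to 0.53 for Ckm, -1.32 to 0.50 for Actn3, -1.20 to 0.43 for Mybpc2, -2.21 to 0.62 for Mybph, -0.42 to 0.50 for Myoz1, -0.13 to 0.81 for Tnnt3, -0.17 to 0.70 for Tnni2, -0.0700 to 0.42 for Tnnc2, -0.12 to 0.81 for Tpm1, -0.37 to 0.92 for Myl1 and -0.0549 to 0.49 for Tmod1. Between the controls, Tpm3 was -0.11 and Unc45b -0.00612 with the covariate, Unc45b was -0.00838 with Mkx-CreER/flox 1 also left out, and Tpm3 ran from -0.12 to 0.49 with 1 library left out.

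No paired analysis was possible because the column numbers of Mkx-CreER/+ (1, 2 and 4) and Mkx-CreER/flox (1, 4 and 5) do not match the replicate numbers of the labels, so the planned replicate block was not run. With 3 or 4 libraries per genotype, a median 10-fold range over libraries limits the precision. Of the 7 slow-fibre genes 1 was called against both controls (Tpm3, which smooth muscle or fibroblasts also make) and 3 against Mkx flox/+. Where leaving out a library left 2 in a genotype, the spread was estimated over all genotypes.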
